A study of Mus musculus with 6 samples.

Results

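The renin-angiotensin and endothelin systems are represented here by 9 genes, and all 9 were found by NCBI Gene ID among the 18019 genes of the expression table. They are Agt, Ace, Agtr1a and Agtrap of the renin-angiotensin system and Edn1, Edn3, Ece1, Ednra and Ednrb of the endothelin system. All 9 had a mean of at least 1 FPKM (fragments per kilobase of gene, scaled to library size) over the 6 libraries, the level above which genes were tested, and 11422 genes in all were tested.

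Angiotensinogen, the product of Agt, is cut by renin and then by angiotensin-converting enzyme (Ace) to angiotensin II, which constricts vessels and promotes hypertrophy and fibrosis of the loaded heart through the type 1 receptor. Endothelin precursors are cut by furin-type proteases and then by endothelin-converting enzyme (Ece1) to short peptides that act on the A and B receptors. Both type 1 angiotensin and endothelin A receptors couple to Gq, and inhibitors of Ace and of the type 1 receptor are standard drugs in heart failure.

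Hearts came from mice of genotype WT, 8 weeks after transverse aortic constriction (TAC), which narrows the aorta and overloads the left ventricle. The 3 VNS-TAC libraries came from mice whose dorsal vagal motor nucleus (DVMN) had been injected with rAAV-ChAT-hChR2[H134R]-GFP, a light-activated channel under the choline acetyltransferase promoter, for activation of vagal preganglionic neurones. Column headers of these libraries read X10Hz_TAC. The 3 Ctrl-TAC libraries came from mice given rAAV-ChAT-GFP, which lacks the channel. Both groups had TAC, and no heart without TAC is among the samples. Age, sex and the part of the heart taken are not in the labels, nor whether the libraries are from different animals. The p-values therefore cover only library-to-library spread, which may be technical.

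The low FPKM values fall on steps of about 1 fragment, which put the depth near 14140000 to 16300000 fragments per library. Across genes, pairs of VNS-TAC libraries had correlations of 0.941 to 0.979 and pairs of Ctrl-TAC libraries 0.988 to 0.992. Pairs across the groups had 0.947 to 0.987. VNS-TAC 2 was closer to every control (0.983 to 0.987) than to either library of its own group (0.971 and 0.979). The remaining treated libraries were each closest to VNS-TAC 2, but closer to every control than to each other. By this measure the treated hearts did not form a group of their own. VNS-TAC 1 and VNS-TAC 3 stood farthest apart, so each result below is also given without single libraries where that matters. The cardiac myosin gene Myh6 ranged over 3212 to 6324 FPKM in VNS-TAC and 4539 to 5805 FPKM in Ctrl-TAC. Atrial markers summed to 3902 to 9175 FPKM in VNS-TAC and 3099 (Ctrl-TAC 2) to 9998 FPKM (Ctrl-TAC 3) in Ctrl-TAC. Blood markers summed to 25.1 to 1503 FPKM in VNS-TAC and 183 to 578 FPKM in Ctrl-TAC. The part of such differences in tissue content in the values below was not tested. Lung is an organ rich in Ace, and of 5 markers of lung epithelium 3 are in the expression table. They summed to 0 to 0.05 FPKM in VNS-TAC and 0.05 to 0.12 FPKM in Ctrl-TAC, with Sftpc at 0 in all 6 libraries.

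In VNS-TAC hearts the mRNA of angiotensinogen was higher than in Ctrl-TAC hearts and that of angiotensin-converting enzyme was lower. The A receptor for endothelin was higher on average and the B receptor lower, while the ligand gene Edn1 differed little. Of these 9 genes, 5 did not overlap between the groups, with Agt and Agtr1a higher in VNS-TAC and Ace, Edn3 and Ednrb lower. Groups did not overlap in 25.4% of all genes tested, 8.01% higher and 17.4% lower. None of the 9 passed an adjusted p of 0.05 in limma, a threshold that 0% of all genes passed. At an unadjusted p under 0.05 limma gave the same 5 genes, against 15.0% of all genes tested, 3.79% higher and 11.3% lower. That split over all genes, 433 higher and 1286 lower, depended on the scaling, with 790 and 900 with size factors, 907 and 759 with quantile normalization and 213 and 1767 with every library at the same sum. It was 702 and 923 with the GC trend removed and 797 and 854 with the length trend removed. Without Ctrl-TAC 3, 8 of the 9 genes did not overlap, against 37.9% of all genes, and without any other single library 5 or 6 did not, against 29.7% to 41.8% of all genes.

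**Figure D1:**
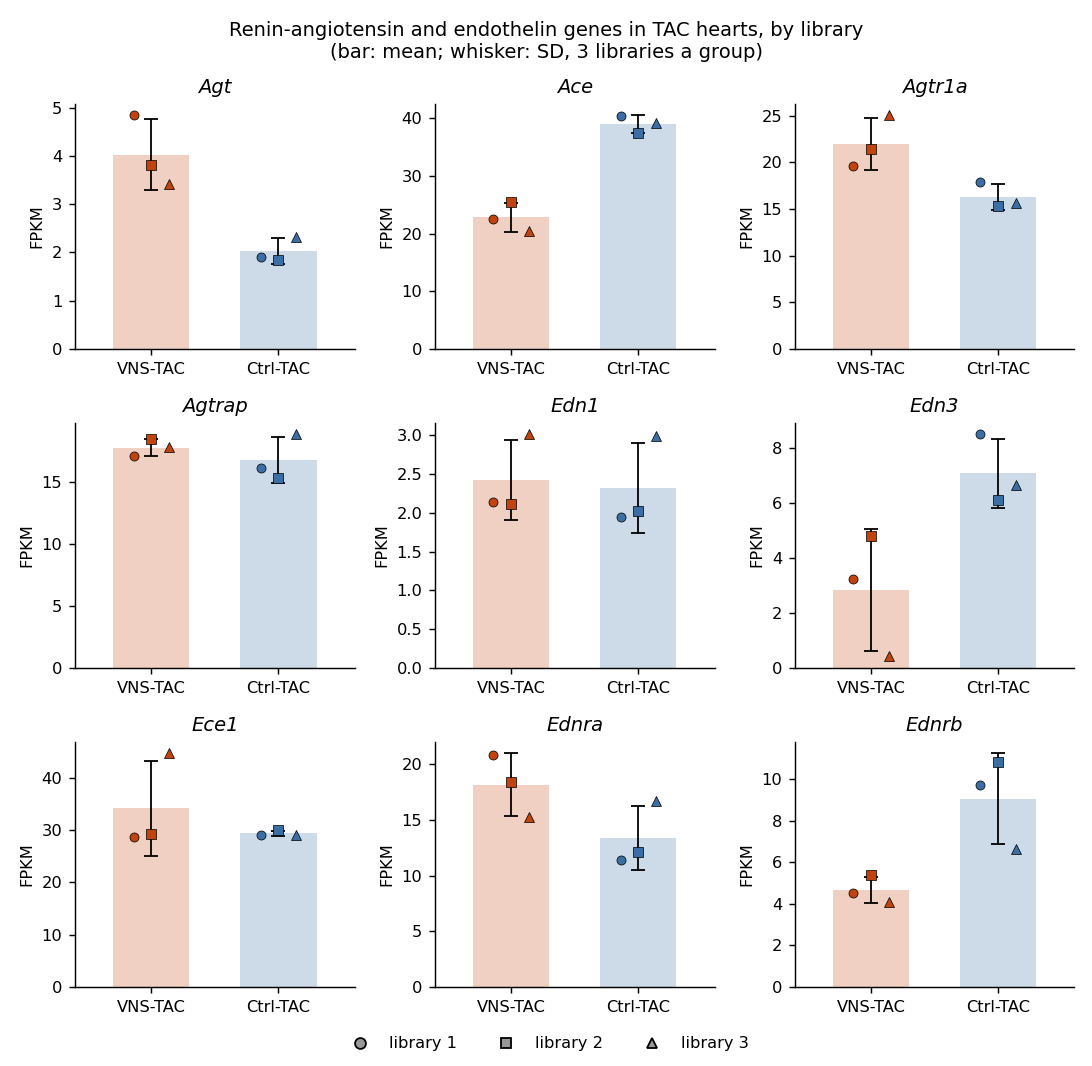
FPKM of each of the 9 genes in the 3 VNS-TAC (left) and 3 Ctrl-TAC (right) libraries. Points are libraries, bars are means and whiskers are SD (n = 3). Ace lies at 20.4 to 25.5 FPKM in VNS-TAC and 37.4 to 40.4 FPKM in Ctrl-TAC, and Ctrl-TAC 3 (triangle) is the control nearest to VNS-TAC for Ednra and Ednrb.

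The upstream regions of 5 members are shown, for the A and B receptors and for Agt and Ace, whose values lay in opposite directions, and for Edn3, which had the largest fold change in size. Each run is the 250 bases before an annotated start (RefSeq, GRCm38.p6), 5′ to 3′ on the strand of the gene. Capitals mark every match on either strand to 6 motifs. The TATA box was searched as TATAAA. For the GC box the letters were GGGCGG. The CCAAT box was searched by its own letters. For GATA factors the search used AGATAA. The AP-1 motif was read as TGANTCA. For EGR factors the search used GCGNGGGCG.
Agt (chr8:124569707-124569956, minus strand): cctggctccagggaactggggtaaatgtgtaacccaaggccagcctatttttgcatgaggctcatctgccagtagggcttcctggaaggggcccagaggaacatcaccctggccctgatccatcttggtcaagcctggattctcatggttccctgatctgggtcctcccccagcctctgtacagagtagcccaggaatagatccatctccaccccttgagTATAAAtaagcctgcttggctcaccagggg
Ace (chr11:105967698-105967947, plus strand): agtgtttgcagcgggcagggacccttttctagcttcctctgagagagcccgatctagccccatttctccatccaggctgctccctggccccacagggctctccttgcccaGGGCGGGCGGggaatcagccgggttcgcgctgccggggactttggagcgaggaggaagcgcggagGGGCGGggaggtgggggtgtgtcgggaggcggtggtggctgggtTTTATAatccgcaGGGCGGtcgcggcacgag
Edn3 (chr2:174760369-174760618, plus strand): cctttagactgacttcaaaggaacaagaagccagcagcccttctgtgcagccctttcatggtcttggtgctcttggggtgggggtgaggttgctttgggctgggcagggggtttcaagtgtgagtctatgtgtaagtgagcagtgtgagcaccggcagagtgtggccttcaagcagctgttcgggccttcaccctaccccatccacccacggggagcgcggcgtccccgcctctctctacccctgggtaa
Ednra (chr8:77724453-77724702, minus strand): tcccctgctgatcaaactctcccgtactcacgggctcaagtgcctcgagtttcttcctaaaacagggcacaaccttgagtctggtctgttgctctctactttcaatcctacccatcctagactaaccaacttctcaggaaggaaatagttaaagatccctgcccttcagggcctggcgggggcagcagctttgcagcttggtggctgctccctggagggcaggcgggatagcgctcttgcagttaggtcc
Ednrb (chr14:103843702-103843951, minus strand): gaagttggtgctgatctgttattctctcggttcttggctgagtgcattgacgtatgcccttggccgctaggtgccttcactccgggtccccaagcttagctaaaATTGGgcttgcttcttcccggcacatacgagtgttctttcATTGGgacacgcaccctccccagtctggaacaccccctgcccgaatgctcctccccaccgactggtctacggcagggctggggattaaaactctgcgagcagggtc
Promoter sequences matched 8 of the 9 genes, all but Agtr1a. The Ednrb start used here lies inside the gene span given with its values, which runs to a farther start. TATAAA stood 30 to 25 bases before the start of Agt, and on the other strand 31 to 26 bases before that of Ace. Ace also held 4 GC boxes, of which 1 pair overlaps, and Ednrb held 2 CCAAT boxes on the other strand, whereas none of these letters occurred in the windows of Edn3 and Ednra. Of all 32851 mouse promoters of the same length, 12.4% held the TATA box, 32.7% the GC box, 33.8% the CCAAT box, 9.99% the GATA motif, 6.75% the AP-1 motif and 4.70% the EGR motif. The GC box and EGR motif can share bases. Ace has another annotated start, whose window (chr11:105974939-105975188) held 1 CCAAT box and neither a GC box nor a TATA box. A match describes letters only.

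Agt (NCBI Gene 11606, chromosome 8, 124556587 to 124569706, GRCm38) encodes the precursor of all angiotensin peptides. It was at 4.84, 3.82 and 3.41 FPKM in libraries VNS-TAC 1, 2 and 3, against 1.90, 1.84 and 2.33 FPKM in Ctrl-TAC 1, 2 and 3. Every VNS-TAC library lay above every Ctrl-TAC library, and the VNS-TAC mean was 1.99 times the Ctrl-TAC mean (4.02 ± 0.74 FPKM in VNS-TAC and 2.02 ± 0.27 FPKM in Ctrl-TAC, SD, n = 3 each). The log2 fold change of FPKM + 1 was 0.73 ± 0.15 (SE), with a limma adjusted p of 0.19. These levels rest on about 101 to 149 fragments per library in VNS-TAC and 49 to 67 in Ctrl-TAC. Adipocytes and fibroblasts are known sources of Agt. Of 7 adipocyte markers 5 were tested and all 5 were lower on average in VNS-TAC, with a summed level of 9.04 to 34.1 FPKM in VNS-TAC and 17.6 to 76.1 FPKM in Ctrl-TAC. The highest adipocyte sum was in Ctrl-TAC 3, while the highest Agt was in VNS-TAC 1, and the part of these cells in Agt was not tested.

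Ace (NCBI Gene 11421, chromosome 11, 105967948 to 105989964) encodes the endothelial enzyme that makes angiotensin II and inactivates bradykinin. It was at 22.5, 25.5 and 20.4 FPKM in libraries VNS-TAC 1, 2 and 3, against 40.4, 37.4 and 39.1 FPKM in Ctrl-TAC 1, 2 and 3. The gap between the groups was wider than the spread within either, and all 3 VNS-TAC libraries were lower. With a log2 fold change of -0.75 ± 0.12 (SE), Ace ranked 27 of 11422 genes by unadjusted p (limma unadjusted p = 3.96e-04, adjusted p = 0.156). Leaving out single libraries gave log2 fold changes of -0.83 to -0.68. Exons of Ace share 295 bases with an antisense gene, Gm11651, and no source used here says whether counting was stranded.

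Because Ace is carried by endothelium, it was also set beside 14 endothelial markers, a comparison chosen after the values were seen. The sum of these markers was 489 to 587 FPKM in VNS-TAC and 561 to 627 FPKM in Ctrl-TAC, with 11 of 14 lower on average and a median log2 fold change of -0.25. Relative to their mean, Ace had log2 ratios of -0.51, -0.21 and -0.50 in VNS-TAC 1, 2 and 3, against 0.17, 0.01 and 0.26 in Ctrl-TAC. The difference of -0.55 had no overlap between groups (2-sided exact permutation p = 0.1, the smallest that 3 libraries against 3 allow). Fewer cells of a type and less RNA per cell cannot be told apart in bulk tissue, here and for every gene below.

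Agtr1a (NCBI Gene 11607, chromosome 13, 30336356 to 30382867), the main type 1 receptor gene of the mouse, was at 19.6, 21.4 and 25.04 FPKM in libraries VNS-TAC 1, 2 and 3, against 17.9, 15.3 and 15.7 FPKM in Ctrl-TAC. All VNS-TAC values were above all Ctrl-TAC values, by 1.35 times on average (log2 fold change 0.41 ± 0.14 SE, limma adjusted p = 0.263). Agtr1a has a close copy, Agtr1b, which was not found in the expression table. Reads could be shared between the copies, so the level of Agtr1a is uncertain. Agtrap (NCBI Gene 11610, chromosome 4, 148077061 to 148088064) encodes a protein that promotes internalisation of the type 1 receptor. It was at 17.1, 18.5 and 17.8 FPKM in VNS-TAC hearts, against 16.2, 15.3 and 18.8 FPKM in Ctrl-TAC, and Ctrl-TAC 3 exceeded every VNS-TAC library. Its log2 fold change was 0.08 ± 0.12 (SE, limma adjusted p = 0.749).

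**Figure D2:**
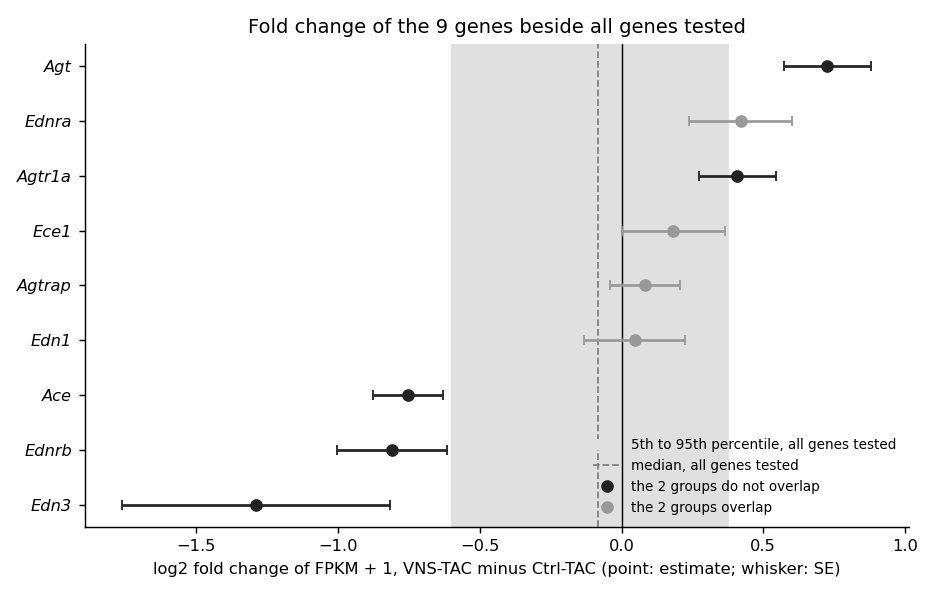
Log2 fold change of FPKM + 1 (VNS-TAC minus Ctrl-TAC, x axis) of the 9 genes, with SE whiskers. Grey shading spans the 5th to 95th percentile of all genes tested (-0.60 to 0.37) and the dashed line is their median (-0.08). Agt, Agtr1a, Ace, Ednrb and Edn3 lie outside the shading with no overlap between groups (black), Ednra lies outside it with overlap (grey), and Edn1, Agtrap and Ece1 lie near 0 and overlap (grey).

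Among the endothelin ligands, Edn1 (NCBI Gene 13614, chromosome 13, 42301476 to 42307990), the vasoconstrictor made mainly by endothelium, was at 2.14, 2.11 and 3.01 FPKM in libraries VNS-TAC 1, 2 and 3, against 1.95, 2.02 and 2.99 FPKM in Ctrl-TAC. The groups overlapped and library 3 was highest in both (log2 fold change 0.05 ± 0.18 SE, limma adjusted p = 0.913). Its sign turned without VNS-TAC 3 (-0.07), Ctrl-TAC 1 or Ctrl-TAC 2. Exons of Edn1 share 35 bases with an antisense gene, Gm47118. Relative to the endothelial markers Edn1 differed by 0.24 on the log2 scale (2-sided exact permutation p = 0.4). These levels rest on about 61 to 101 fragments per library.

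Edn3 (NCBI Gene 13616, chromosome 2, 174760619 to 174784042) encodes the ligand that acts mainly through the B receptor. It was at 3.24, 4.81 and 0.44 FPKM in libraries VNS-TAC 1, 2 and 3, against 8.51, 6.12 and 6.66 FPKM in Ctrl-TAC. All VNS-TAC libraries were lower, and VNS-TAC 3 was far below the other libraries with about 28 fragments. The log2 fold change of -1.29 ± 0.47 (SE, limma adjusted p = 0.278) was the largest of the 9 in size, and it was -0.69 without VNS-TAC 3. Edn3 exceeded Edn1 in every library but VNS-TAC 3.

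Ece1 (NCBI Gene 230857, chromosome 4, 137862237 to 137965229), the converting enzyme, was at 28.7, 29.2 and 44.8 FPKM in libraries VNS-TAC 1, 2 and 3, against 29.1, 30.0 and 29.0 FPKM in Ctrl-TAC. VNS-TAC 3 stands above the other 5 libraries, which lie between 28.7 and 30.0 FPKM. The log2 fold change of 0.18 ± 0.18 (SE, limma adjusted p = 0.624) became -0.02 without that library. The same library had the lowest Edn3.

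The endothelin receptors lay in opposite directions. Ednra (NCBI Gene 13617, chromosome 8, 77663029 to 77724452), the A receptor of smooth muscle, pericytes, fibroblasts and cardiomyocytes, was at 20.8, 18.4 and 15.2 FPKM in libraries VNS-TAC 1, 2 and 3, against 11.4, 12.1 and 16.7 FPKM in Ctrl-TAC. Ctrl-TAC 3 lay above VNS-TAC 3, so the groups overlapped (log2 fold change 0.42 ± 0.18 SE, limma unadjusted p = 0.0527, adjusted p = 0.337). Ednrb (NCBI Gene 13618, chromosome 14, 103814615 to 103844508), the B receptor, which clears endothelin and releases nitric oxide from endothelium, was at 4.54, 5.37 and 4.10 FPKM in VNS-TAC hearts, against 9.74, 10.9 and 6.63 FPKM in Ctrl-TAC. Every VNS-TAC library was below every Ctrl-TAC library, and Ctrl-TAC 3 was the lowest control (log2 fold change -0.81 ± 0.19 SE, limma adjusted p = 0.214). Without Ctrl-TAC 3 the log2 fold changes were 0.58 for Ednra and -0.999 for Ednrb. Exons of Ednra share 91 bases with 4933431K23Rik on the other strand.

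The ratio of Ednra to Ednrb FPKM within a library is the same under any single scaling factor for that library, which does not hold exactly for the log2 ratio of FPKM + 1 or for quantile normalization. Ednra FPKM was 4.59, 3.43 and 3.71 times Ednrb FPKM in libraries VNS-TAC 1, 2 and 3, against 1.17, 1.12 and 2.52 times in Ctrl-TAC 1, 2 and 3. No VNS-TAC ratio was as low as any Ctrl-TAC ratio. The mean log2 ratio of FPKM + 1 was 1.75 ± 0.20 in VNS-TAC and 0.52 ± 0.60 in Ctrl-TAC (SD, n = 3), a difference of 1.23 (2-sided exact permutation p = 0.1, the smallest possible). The difference ran from 1.04 without Ctrl-TAC 2 to 1.58 without Ctrl-TAC 3.

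Markers of cell types that carry the A receptor lay in different directions. Of 10 cardiomyocyte markers 5 were higher and 5 lower on average, with a median log2 fold change of 0.01. All 13 pericyte and smooth muscle markers were lower on average (11 of 13 with size factors, quantile normalization or the length trend removed), with sums of 227 to 266 FPKM in VNS-TAC and 271 to 420 FPKM in Ctrl-TAC. Of 12 fibroblast markers 11 were lower (10 with the GC trend removed), with sums of 896 to 1323 FPKM in VNS-TAC and 1339 to 1356 FPKM in Ctrl-TAC. Gsn (mean 597 FPKM in VNS-TAC and 714 FPKM in Ctrl-TAC) and Dcn (260 and 274 FPKM) weighed most in these sums. Each of them overlapped between groups. Of all genes tested, 7056 of 11422 were lower on average. At an unadjusted p under 0.05 in limma, 2 of the 13 and 5 of the 12 were lower and 0 and 1 higher, against 11.3% of all genes lower and 3.79% higher. The part of these populations in Ednra was not tested. Relative to the mean of the pericyte and smooth muscle markers, Ednra had log2 ratios of 0.67, 0.45 and 0.48 in VNS-TAC 1, 2 and 3, against -0.26, -0.73 and 0.04 in Ctrl-TAC. Relative to the fibroblast markers it was at -0.59, -0.81 and -0.46 in VNS-TAC 1, 2 and 3, against -1.84, -1.75 and -1.27 in Ctrl-TAC. Neither ratio overlapped between groups, with differences of 0.85 and 1.001 (2-sided exact permutation p = 0.1 for each).

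For Ednrb, a ratio to the endothelial markers, chosen after the values were seen, had log2 values of -2.59, -2.27 and -2.57 in VNS-TAC hearts, against -1.78, -1.68 and -2.13 in Ctrl-TAC. The VNS-TAC ratios were all lower, with a mean difference of -0.61 (2-sided exact permutation p = 0.1). Endocardial markers, another population with endothelin signalling, summed to 34.7 to 42.6 FPKM in VNS-TAC and 42.7 to 51.2 FPKM in Ctrl-TAC. Markers of Schwann cells, which derive from the neural crest, summed to 3.27 to 5.21 FPKM in VNS-TAC and 5.44 to 6.74 FPKM in Ctrl-TAC. The part of any of these populations in the receptor values was not tested.

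**Figure D3:**
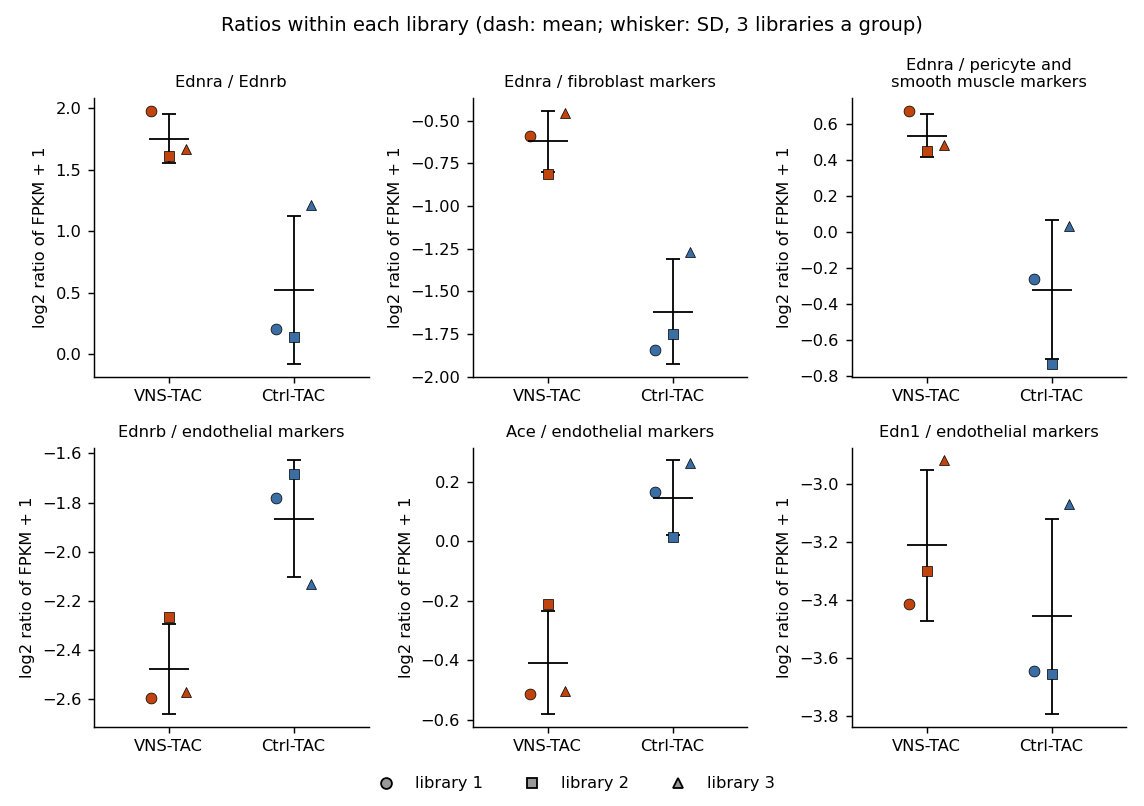
Log2 ratios of FPKM + 1 within each library (y axes, each with its own range) for VNS-TAC (left) and Ctrl-TAC (right). Points are libraries, dashes are means and whiskers are SD (n = 3). The ratio of Ednra to Ednrb is 1.61 to 1.98 in VNS-TAC and 0.15 to 1.21 in Ctrl-TAC, while the ratio of Edn1 to endothelial markers overlaps.

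By level, Ece1 and Ace were the most abundant of the 9 transcripts per length, at means over 6 libraries of 31.8 and 30.9 FPKM. Agtr1a (19.2 FPKM), Agtrap (17.3 FPKM) and Ednra (15.8 FPKM) formed a middle tier whose ranges over the libraries overlapped. Ednrb (6.87 FPKM), Edn3 (4.96 FPKM), Agt (3.02 FPKM) and Edn1 (2.37 FPKM) were lowest. The ranges of Ednra and Ednrb did not meet, while every other pair of neighbours in this order overlapped. The order of Ace and Ece1 differed by group, with Ece1 above Ace in all 3 VNS-TAC libraries and Ace above Ece1 in all 3 Ctrl-TAC libraries.

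The other genes of both systems were taken from 6 lists with 90 genes, of which 83 are in the table and 59 were tested. Rgs5 of the signalling list is also a pericyte marker, and Cma1, Cpa3 and Mcpt4 are also mast cell markers. At an unadjusted p under 0.05 in limma 3 were higher and 14 lower, against 3.79% and 11.3% of all genes, and 0 passed the adjusted threshold. Their median log2 fold change was -0.21, against -0.08 over all genes tested. Counts of lower genes depended on the scaling, with 10 of 59 at an unadjusted p under 0.05 with size factors (900 of all 11422 genes) and 20 of 59 with every library rescaled to the same sum (1767 of all 11422).

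Of 11 tested angiotensin peptidases and related genes, 1 was higher and 2 were lower at an unadjusted p under 0.05 in limma, against 3.79% and 11.3% of all genes. Enpep, the aminopeptidase that turns angiotensin II into angiotensin III, was at 1.48, 1.55 and 1.04 FPKM in libraries VNS-TAC 1, 2 and 3, against 2.59, 3.15 and 2.85 FPKM in Ctrl-TAC, with no overlap (log2 fold change -0.72, limma adjusted p = 0.19). Lnpep, which binds angiotensin IV, was at 1.99, 4.29 and 3.09 FPKM in VNS-TAC hearts, against 5.75, 5.31 and 5.07 FPKM in Ctrl-TAC. Thop1, a peptidase that can make angiotensin 1-7, was the higher one, at 10.1, 9.23 and 10.04 FPKM in VNS-TAC hearts, against 7.91, 7.43 and 7.48 FPKM in Ctrl-TAC. All 3 were without overlap between groups and past the unadjusted threshold, with limma adjusted p = 0.19, 0.255 and 0.271. Having the smallest unadjusted p of the list was the reason for naming them, which favours genes without overlap. Groups did not overlap in 25.4% of all genes tested.

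Several genes of the system were low, and those in this paragraph other than Nr3c2 were named after their values were seen. Renin itself, Ren1, was listed at 0 in all VNS-TAC libraries and at 0, 0.05 and 0 FPKM in Ctrl-TAC. The mast cell chymase gene Cma1, whose human counterpart makes angiotensin II, was at 0, 1.18 and 0.41 FPKM in VNS-TAC hearts, against 0.88, 0.93 and 1.10 FPKM in Ctrl-TAC. Neprilysin, Mme, which degrades angiotensin and natriuretic peptides, was under the filter at 0.35, 0.59 and 0.27 FPKM in VNS-TAC hearts, against 0.91, 1.17 and 1.05 FPKM in Ctrl-TAC. Of 8 genes in the list of receptors and related genes, 5 are in the expression table and the rest were not measured there. Only the mineralocorticoid receptor gene Nr3c2 passed the filter, at 3.06 ± 0.82 FPKM in VNS-TAC and 3.64 ± 0.16 FPKM in Ctrl-TAC (SD, n = 3, limma adjusted p = 0.565).

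Genes of aldosterone metabolism and response gave 1 higher and 0 lower of 4 tested at an unadjusted p under 0.05 in limma, with the same shares of all genes. The higher one was Lcn2, lipocalin 2, also a neutrophil granule protein, at 12.2, 9.31 and 80.4 FPKM in VNS-TAC and 2.27, 2.91 and 3.07 FPKM in Ctrl-TAC (log2 fold change 2.58, limma adjusted p = 0.236). Of 8 neutrophil markers 4 were tested, and all 4 were higher at an unadjusted p under 0.05 in limma, against 3.79% of all genes. Of these, Ngp and Retnlg passed the filter only through VNS-TAC, with Ctrl-TAC means of 0.04 and 0.39 FPKM. Among the untested markers, Cxcr2 overlapped between groups. All 8 summed to 46.6 to 101 FPKM in VNS-TAC and 1.52 to 4.99 FPKM in Ctrl-TAC. Their part in Lcn2 was not tested. Sgk1, a kinase induced through mineralocorticoid and glucocorticoid receptors, was at 65.2, 59.2 and 30.4 FPKM in VNS-TAC hearts, against 57.6, 88.7 and 69.4 FPKM in Ctrl-TAC, and Hsd11b1, which regenerates active glucocorticoid, at 9.42, 10.98 and 26.5 FPKM in VNS-TAC hearts, against 6.37, 8.79 and 12.5 FPKM in Ctrl-TAC. Both overlapped.

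In endothelin processing, Furin, the protease that trims the precursors before Ece1 acts, was at 46.6, 43.9 and 40.2 FPKM in libraries VNS-TAC 1, 2 and 3, against 30.4, 34.2 and 36.6 FPKM in Ctrl-TAC. The groups did not overlap (log2 fold change 0.36, limma adjusted p = 0.264). Furin was the only 1 of 4 tested genes of this list at an unadjusted p under 0.05 in limma. Of all genes tested, 3.79% were higher and 11.3% lower at that threshold. Pcsk6 and Pcsk7, related convertases, were at 13.4 ± 6.76 and 10.6 ± 2.19 FPKM in VNS-TAC and 19.8 ± 2.06 and 11.8 ± 1.06 FPKM in Ctrl-TAC (SD, n = 3), with overlap.

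Downstream of both receptor types, 8 of 26 tested Gq and G12 signalling genes were lower at an unadjusted p under 0.05 in limma and 0 higher, against 11.3% and 3.79% of all genes. The count of lower genes was 5 with size factors (900 of all 11422 genes) and 5 with quantile normalization (759 of all 11422). Arhgef12, which carries signals of G12-coupled receptors to the cytoskeleton, was at 23.4, 27.5 and 21.3 FPKM in VNS-TAC hearts, against 35.3, 38.8 and 36.3 FPKM in Ctrl-TAC. Prkca, protein kinase C alpha, was at 3.45, 3.98 and 3.20 FPKM in VNS-TAC hearts, against 5.45, 6.67 and 5.21 FPKM in Ctrl-TAC. Rock2, a kinase gene of the contractile cytoskeleton, was at 5.51, 10.8 and 9.87 FPKM in VNS-TAC hearts, against 15.8, 18.4 and 12.2 FPKM in Ctrl-TAC. None of these 3 overlapped between groups, and their limma adjusted p values were 0.19, 0.221 and 0.257. They were named for the smallest unadjusted p of the list, which favours genes without overlap. Of all genes tested, 17.4% were lower without overlap.

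Genes known to respond to angiotensin II, listed with NADPH oxidase subunits, gave 0 higher and 4 lower of 13 tested at an unadjusted p under 0.05 in limma, against 3.79% and 11.3% of all genes. Ccn1, a matricellular protein gene, was at 91.1, 35.7 and 31.6 FPKM in VNS-TAC hearts, against 94.6, 109 and 127 FPKM in Ctrl-TAC. Mmp2, a gelatinase, was at 28.1, 21.5 and 19.2 FPKM in VNS-TAC hearts, against 42.9, 37.3 and 40.8 FPKM in Ctrl-TAC. Neither overlapped between groups (limma adjusted p = 0.251 for Ccn1 and 0.19 for Mmp2), although VNS-TAC 1 came close to Ctrl-TAC 1 for Ccn1. Both were named for a small unadjusted p, which favours genes without overlap, and 17.4% of all genes were lower without overlap. Ccn1 and Mmp2 also respond to other signals, and Mmp2 is a gene of fibroblasts. Of 12 fibroblast markers 11 were lower on average, against 7056 of 11422 genes tested. The part of fibroblasts or of other signals in these values was not tested.

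Genes whose level followed a member most closely over the 6 libraries were found by Pearson correlation of log2(FPKM + 1), as a description. The libraries share groups, so any gene with a clear group difference can rank high. For Ace they were Nipa2 (r = 0.998), 2810006K23Rik (r = 0.997) and Itih5 (r = 0.995). For Agt they were Fem1a (r = 0.996), Hmga1 and Irx5 (r = 0.995 each). For Ednrb they were Ppp2r2a (r = 0.997), Hikeshi (r = 0.993) and Mrps25 (r = 0.992). Among the members themselves, Ace correlated with Ednrb at 0.894 and with Edn3 at 0.854, and Agt with Ednra at 0.894, while Agt correlated with Ace at -0.885 and with Ednrb at -0.892.

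**Figure D4:**
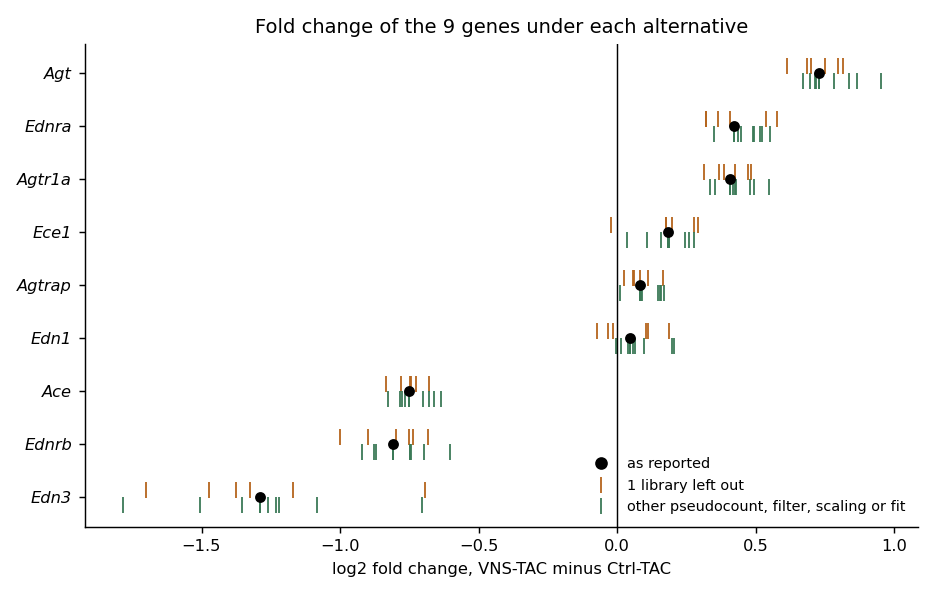
Log2 fold change of the 9 genes (VNS-TAC minus Ctrl-TAC, x axis) as reported (black) and under each alternative, with 1 library left out (orange) or another pseudocount, filter, scaling or fit (green). Agt stays between 0.61 and 0.95, Ace between -0.83 and -0.64 and Ednrb between -0.999 and -0.60, while Edn1 and Ece1 cross 0.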

How the data were processed

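RNA of mouse hearts was measured after oligo-dT capture, per the labels' protocols. The authors' deposited table gives FPKM, per the file headers, in 6 columns and 18019 rows named by NCBI ID, rounded to 2 decimals. The submitters' processing notes name GRCm38, HISAT, DESeq 1.8.3 and featureCounts 1.5.0-p3 but no role for any of them, and the annotation and strand setting are not given in the sources used. Groups came from sample titles, because a treatment tag reads VNS for the controls too. VNS-TAC columns carry numbers 1 to 3, which the text keeps, and the labels carry 4 to 6.

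Symbols came from RefSeq (GRCm38.p6) for 17890 IDs and GENCODE M21 for 15. Genes averaging 1 FPKM or more were compared on log2(FPKM + 1), which understates the fold change of low genes, with limma 3.58.1 in R 4.3.3 (intensity trend, Benjamini-Hochberg over all 11422 genes). The script was tested on simulated data. Single ratios had 2-sided exact permutation tests over 20 assignments. Depths are estimates from FPKM steps, used in no test, and cover counting only. Members and lists were chosen with earlier results of these data known. Named genes are all members, the 3 of each list with the smallest unadjusted p, and the 3 most correlated with each of 3 members. Some genes and a ratio among these are not reported here. Tables were handled in Python 3.11.15.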

Additional observations from a re-analysis of the deposited data

How the results depend on the processing

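With 3 libraries a group, exact tests cannot go below 0.1. Low genes such as Edn1 and Agt rest on few fragments, as does Edn3 in VNS-TAC 3 (about 28). Agt, Ace, Agtr1a, Agtrap, Edn3, Ednra and Ednrb kept their direction in every alternative run. Edn1 turned to -0.0061 with every library rescaled to the same sum and, with single libraries left out, ran from -0.073 to 0.19, and was lower without VNS-TAC 3 (-0.073), Ctrl-TAC 1 (-0.032) or Ctrl-TAC 2 (-0.015). Ece1 ran from -0.021 without VNS-TAC 3 to 0.29. Array weights put Agt (0.72, limma adjusted p = 0.0113), Ace (-0.64, adjusted p = 0.00938), Ednra (0.52, adjusted p = 0.0475) and Ednrb (-0.75, adjusted p = 0.025) past the threshold, but weighted VNS-TAC 2 at 2.82 and VNS-TAC 1 and 3 at 0.246 and 0.247. Over all alternatives adjusted p ran from 0.0113 to 0.697 for Agt, 0.00938 to 0.674 for Ace, 0.0475 to 0.74 for Ednra and 0.025 to 0.711 for Ednrb. The limma count of genes past the adjusted threshold, 0 as reported (1719 at an unadjusted p under 0.05), was 1016 with array weights, 2 with size factors, quantile normalization or the GC trend removed, 1 with a filter at 0.5 or 5 FPKM, and 0 to 3 with a library left out. The cause was not tested. Of the 6 members above a filter at 5 FPKM, 3 had an unadjusted p under 0.05, against 15.2% of all genes above it, fewer being tested. Non-overlapping members numbered 5 to 8 with a library left out, against 29.7% to 41.8% of all genes. The GC and length corrections and the alternatives for the counts of members were added after seeing the data. Same-sum scaling put the all-gene median log2 fold change at -0.15 and quantile normalization at 0.01, against -0.08 as reported. No paired analysis was possible because VNS-TAC columns and labels carry different numbers, so the replicate block was not run.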
